A study of Mus musculus with 53 samples.

Results

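The genes described here are 9 output and accessory loop genes of the circadian clock, measured in mouse lung after cigarette smoke, sham exposure and smoke cessation. They are Dbp, Tef, Hlf, Nfil3, Bhlhe40, Bhlhe41, Ciart, Usp2 and Rora, chosen by name from what is known of the clock, and each is represented by the brightest of its probe sets on an Affymetrix Mouse 430 2.0 array. All 9 passed the detection filter, among 15030 genes tested, and each was called present on all 53 arrays. Their genes lie on chromosome 7 (Dbp), 15 (Tef), 11 (Hlf), 13 (Nfil3), 6 (Bhlhe40 and Bhlhe41), 3 (Ciart) and 9 (Usp2 and Rora).

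The circadian clock is a feedback loop in which the transcription factors BMAL1 (gene Arntl) and CLOCK, or its relative NPAS2, switch on genes with an E-box in their promoter, among them the period and cryptochrome genes whose proteins then shut BMAL1 and CLOCK off. The output genes carry this rhythm to the rest of the genome: DBP, TEF and HLF activate genes through a D-box and NFIL3 represses through the same element, while the nuclear receptor RORA activates genes through a ROR element. In the lung the clock is known to run in airway club cells and in alveolar macrophages, among other cells, and to shape how strongly the tissue reacts to inhaled irritants.

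Whole small lobes came from female C57BL/6 mice, the strain that all groups share, without any transgene or knockout named in the labels. Exposed mice breathed 4% mainstream cigarette smoke through the nose, or air by the same procedure (forced air, the sham exposure), in sessions of 2 hours per day, 5 days weekly. Smoke was given for 2 weeks (6 mice), 12 weeks (5 mice) or 24 weeks (6 mice). A pair of cessation groups had 12 weeks of smoke followed by 12 weeks of forced air (6 mice) or of room air (6 mice). Forced air mice were taken at 2, 12 and 24 weeks (6 mice each), and 6 untreated mice are labelled as time 0. The treatment protocol describes sham exposure after smoke for every cessation mouse, whereas the group names tell forced air and room air apart, and the group names were followed. There was no group with 24 weeks of room air alone, so forced air at 24 weeks served as the control of both cessation groups. The labels give the exposure time in their age field and no age at the start.

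The labels give no hour of tissue collection, and each mouse was sampled once. A shift in the phase of a rhythm and a change in its level therefore cannot be told apart in these values. Because whole lobes were measured, fewer cells that express a gene and less RNA per cell cannot be told apart either. The defining lung genes were present on all 53 arrays, among them Sftpc of alveolar type 2 cells (signal 2529 to 4918), Scgb1a1 of club cells (2888 to 4724) and Ager of alveolar type 1 cells (1544 to 3980). Per array, 67.5% to 76.2% of probe sets were called present. The Gapdh 3′/5′ ratio, which rises as RNA degrades, ran from 1.40 to 2.42, and 2 arrays lay above 2, 1 of forced air at 2 weeks and 1 of forced air at 12 weeks. Each array is a separate sample in the labels and is taken here as 1 mouse. Nothing says so outright, so the p-values measure the spread between these samples, and precision is limited by how many arrays a group has.

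Promoter sequences are shown for the 4 genes with a match to the letters of an E-box or a ROR element. Their signals moved in different directions below. Whether the loop acts on these genes through those letters was not tested. RefSeq windows of 250 bases before to 50 after an annotated start (assembly GRCm38.p6) were at hand for 8 of the 9 genes, 9 windows in all. They were searched on both strands for the E-box CACGTG, its variant CACGTT, the D-box as TTATGTAA, TTACGTAA or TTATGCAA, and the ROR element as TAGGTCA or TGGGTCA. In the lines that follow, 5′ to 3′ on the gene's strand, capitals mark the matches. The Ciart window lies on the minus strand at chr3:95882179-95882478, the Bhlhe41 window on the minus strand at chr6:145865371-145865670, the first of 2 Tef windows on the plus strand at chr15:81802423-81802722 and the Nfil3 window on the minus strand at chr13:52980990-52981289.
Ciart: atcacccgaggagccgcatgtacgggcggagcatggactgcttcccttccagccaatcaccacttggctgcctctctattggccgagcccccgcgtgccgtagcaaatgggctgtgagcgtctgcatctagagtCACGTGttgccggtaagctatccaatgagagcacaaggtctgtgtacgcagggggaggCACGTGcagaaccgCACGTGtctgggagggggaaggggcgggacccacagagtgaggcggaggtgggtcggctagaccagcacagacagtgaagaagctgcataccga
Bhlhe41: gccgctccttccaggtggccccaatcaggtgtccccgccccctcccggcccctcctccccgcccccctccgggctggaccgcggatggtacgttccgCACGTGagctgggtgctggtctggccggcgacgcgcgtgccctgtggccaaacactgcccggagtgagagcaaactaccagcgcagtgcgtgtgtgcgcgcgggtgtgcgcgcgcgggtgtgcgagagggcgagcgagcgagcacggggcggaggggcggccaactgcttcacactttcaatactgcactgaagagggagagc
Tef: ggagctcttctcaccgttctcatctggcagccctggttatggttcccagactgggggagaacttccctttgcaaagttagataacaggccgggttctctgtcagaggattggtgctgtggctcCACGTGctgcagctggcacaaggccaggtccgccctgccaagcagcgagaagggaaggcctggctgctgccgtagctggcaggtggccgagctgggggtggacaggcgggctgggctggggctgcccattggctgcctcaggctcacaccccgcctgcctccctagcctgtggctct
Nfil3: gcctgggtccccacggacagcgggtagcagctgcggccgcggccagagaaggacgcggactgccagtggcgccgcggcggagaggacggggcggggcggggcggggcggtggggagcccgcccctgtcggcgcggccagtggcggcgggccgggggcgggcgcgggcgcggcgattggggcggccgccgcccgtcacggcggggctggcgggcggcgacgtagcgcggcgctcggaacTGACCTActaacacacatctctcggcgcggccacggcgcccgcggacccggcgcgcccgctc

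The Ciart window held 3 E-boxes, which begin 116, 58 and 44 bases before the start, and 3 or more were found in 29 of all 32851 windows of the same length (0.0883%). The Bhlhe41 window held 1 E-box, 153 bases before the start, and each Tef window held 1. At least 1 E-box was found in 7.15% of all windows. The Nfil3 window held the only ROR element among these genes, 12 bases before the start. It reads TAGGTCA on the strand opposite to the gene's, so the line above shows it as TGACCTA. Some form of the element was in 6.45% of all windows. The windows of Dbp, Hlf, Usp2 and Rora held none of the searched letters, which says only that these letters are not in those windows. The D-box was in none of the 9 windows and in 1.78% of all. None of the matches overlapped one of another kind.

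All 9 genes differed among the 9 groups (moderated F test of limma, Benjamini-Hochberg adjusted p under 0.05 over all genes tested), as did 65.4% of all genes tested. Signals are on the linear MAS5 scale. Log2 changes are differences between group means of log2(signal + 16), given with their standard error (SE) and the adjusted p of the limma fit on all 53 arrays. Folds are on that same scale. A gene was called at an adjusted p under 0.05.

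**Figure D1:**
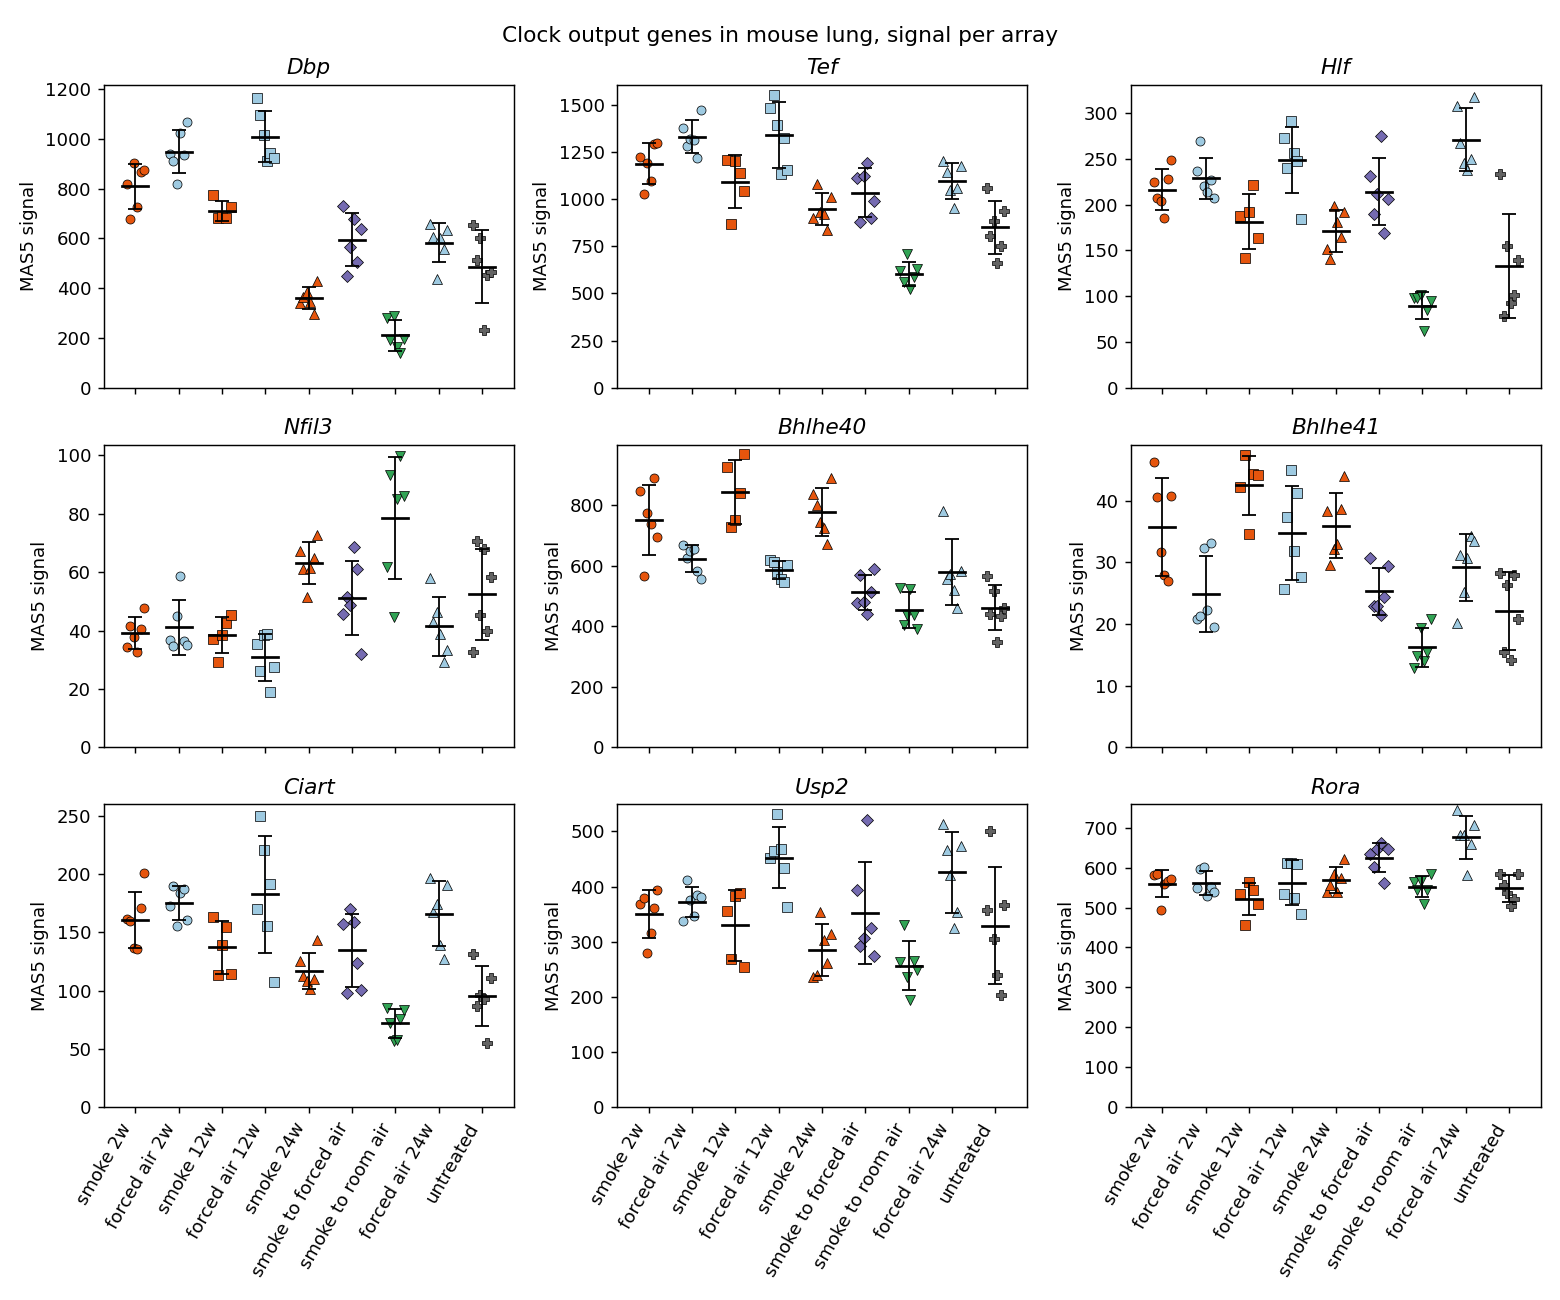
Signal of each of the 9 genes on each of the 53 arrays, by group. The vertical axis is the MAS5 signal on a linear scale from 0, points are single mice, the long bar is the group mean and the whiskers are ± 1 SD. Dbp, Tef, Hlf, Ciart and Usp2 have their lowest group mean in smoke-to-room-air mice, and Nfil3 its highest.

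In smoke-exposed lungs Dbp, Hlf and Usp2 were lower than in forced air at both 12 and 24 weeks, and Bhlhe40 was higher at both. At 2 weeks 1 of 9 was higher than in forced air (5.4% of all genes tested were called higher) and none was lower. At 12 weeks 1 was higher (12.5% of all genes) and 4 were lower (10.5% of all genes). At 24 weeks 2 were higher (11.1% of all genes) and 5 were lower (6.68% of all genes). The median log2 change of the 9 was -0.08, -0.29 and -0.24 at 2, 12 and 24 weeks, against 0.00, -0.02 and 0.00 for all genes tested. The 3 tests of a difference between the smoke effects of 2 durations called none of the 9 by limma. They called 6.41% of all genes for 24 against 2 weeks, 2.2% for 12 against 2 weeks and 0.0466% for 24 against 12 weeks. At an unadjusted p under 0.05, 5 of the 9 passed for 24 against 2 weeks and 0 in the others. The share of all genes was not counted at that threshold, and is not given for the settings that follow. With other groups left out of the fit, 3 of the 9 were called for 24 against 2 weeks, Dbp, Hlf and Nfil3. With the title number ranges as a covariate 3 were called too, Hlf, Usp2 and Rora, so only Hlf was shared. After quantile normalization 2 were called, Nfil3 and Rora. On the second brightest probe set 4 of the 5 genes that have one were called for 24 against 2 weeks, Dbp (log2 -0.74, adjusted p = 0.0405), Tef (-0.81, 0.0246), Usp2 (-0.51, 0.0483) and Rora (-0.39, 0.0269).

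**Figure D2:**
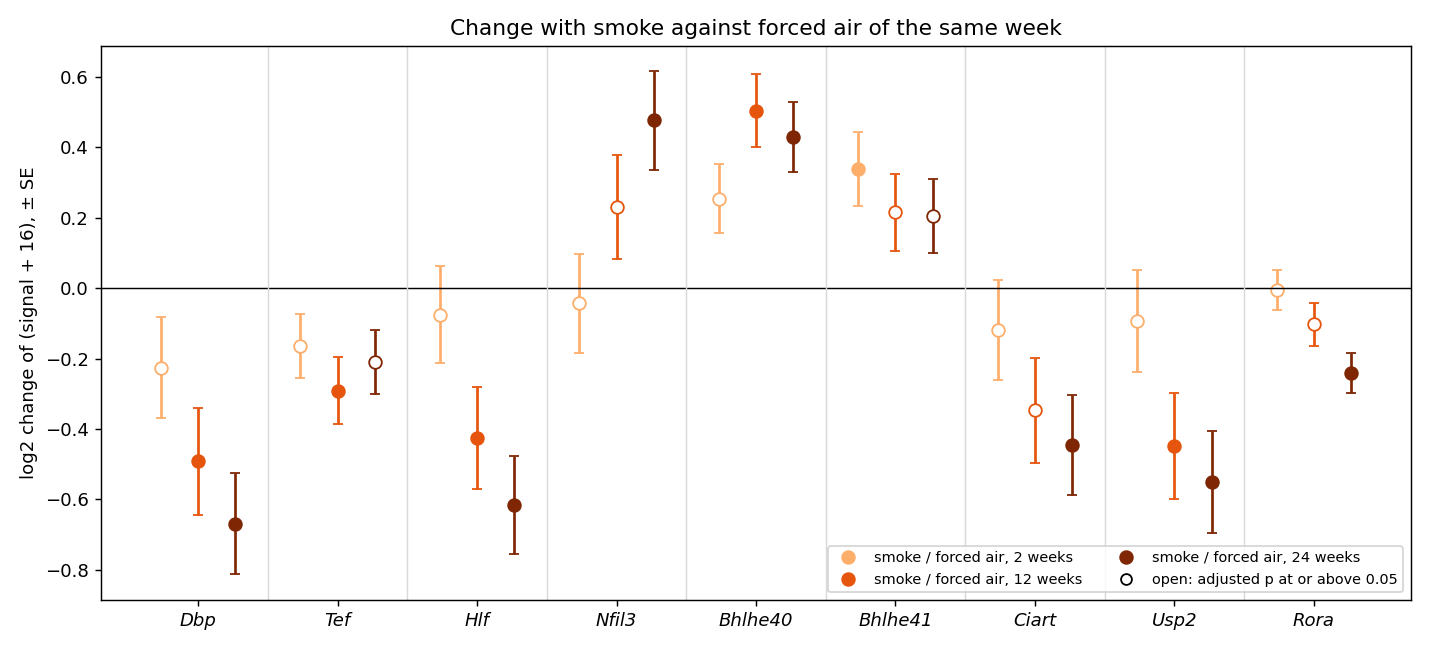
Log2 change of log2(signal + 16) in smoke against forced air at 2, 12 and 24 weeks for the 9 genes, with whiskers of ± 1 SE. Filled points passed an adjusted p under 0.05 in limma and open points did not. Dbp, Hlf and Usp2 lie below 0 with filled points at 12 and 24 weeks, and Bhlhe40 lies above 0 with filled points at both.

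Dbp encodes a proline- and acid-rich basic leucine zipper activator and is among the most strongly rhythmic transcripts known in mouse tissues. At 24 weeks its signal ran from 296.9 to 429.3 with a median of 355.1 in smoke-exposed mice, and from 437.8 to 659.4 with a median of 604.0 in forced air mice. The 2 groups did not overlap, and Dbp fell 1.59-fold (log2 change -0.67, SE 0.14, adjusted p = 0.000479). At 12 weeks the 5 smoke-exposed mice had 775.3, 680.1, 689.3, 682.4 and 725.4, below all 6 forced air mice, whose signals ran from 911.1 to 1165 with a median of 978.8 (log2 -0.49, SE 0.15, adjusted p = 0.0132). At 2 weeks the mean was 809.7 ± 90.6 in smoke-exposed and 948.3 ± 87.1 in forced air mice (SD, n = 6 each), and the groups overlapped (log2 -0.23, SE 0.14, limma adjusted p = 0.347). The second Dbp probe set gave -0.51 at 12 weeks and -0.78 at 24 weeks, both called.

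Hlf, hepatic leukemia factor, is a second activator of this family. At 24 weeks its signal was 140.3 to 198.4 (median 172.9) in smoke-exposed mice and 237.4 to 317.8 (median 258.2) in forced air mice. The groups did not overlap, and Hlf fell 1.53-fold (log2 -0.62, SE 0.14, adjusted p = 0.000766). At 12 weeks it fell by 0.42 on the log2 scale (SE 0.14, adjusted p = 0.0263), with 2 of 5 smoke arrays below all forced air arrays. The 12-week call was lost without the arrays of a Gapdh ratio above 2 (log2 -0.40, adjusted p = 0.055). Leaving out forced air replicate 1 or 3 or smoke replicate 2 or 5 also lost it. The second Hlf probe set, with a median signal of 81.5 against 206.2, gave -0.43 at both times and was not called at 12 weeks (adjusted p = 0.172) or 24 weeks (adjusted p = 0.168). Values of second and further probe sets come from a limma fit on all kept probe sets.

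Tef, the thyrotroph embryonic factor and another activator of the family, had the highest signal of the 9 probe sets, with a median of 1078 over all arrays. At 12 weeks the 5 smoke-exposed mice had 1210, 868.2, 1200, 1138 and 1044, and the forced air mice had 1131 to 1554 (median 1359). The groups overlapped, and Tef fell 1.22-fold (log2 -0.29, SE 0.10, adjusted p = 0.0202). This call was lost on the second probe set (log2 -0.25, adjusted p = 0.309), after quantile normalization (adjusted p = 0.0745), in a fit of these 2 groups alone (adjusted p = 0.0591), with the 3′/5′ ratios as covariates (log2 -0.17, adjusted p = 0.255) and without smoke replicate 2 or forced air replicate 1 or 2. At 24 weeks the brightest probe set was not called (log2 -0.21, SE 0.09, adjusted p = 0.102), with means of 946.7 ± 86.2 in smoke-exposed and 1097 ± 94.0 in forced air mice (SD, n = 6 each). The second probe set of Tef was called there (log2 -0.69, adjusted p = 0.00112), and the dimmest was not (log2 -0.19). The brightest was called with the title number ranges as a covariate (log2 -0.25, adjusted p = 0.0249).

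Nfil3, the repressor that competes with DBP, TEF and HLF for the D-box, moved the other way. At 24 weeks its signal was 51.6 to 72.6 (median 63.2) in smoke-exposed and 29.3 to 57.9 (median 40.9) in forced air mice. Of the 6 smoke arrays 5 lay above every forced air array, and Nfil3 rose 1.39-fold (log2 0.48, SE 0.14, adjusted p = 0.0114). It was not called at 12 weeks (log2 0.23, SE 0.15, adjusted p = 0.273) or at 2 weeks (log2 -0.04, SE 0.14, adjusted p = 0.887).

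Bhlhe40 and Bhlhe41, also known as DEC1 and DEC2, encode basic helix-loop-helix repressors that bind E-boxes and are driven by them. Bhlhe40 signals at 12 weeks were 926.0, 726.8, 749.1, 841.1 and 968.1 in the 5 smoke-exposed mice, against 546.6 to 618.6 (median 591.5) in forced air mice. The groups did not overlap, and Bhlhe40 rose 1.42-fold (log2 0.50, SE 0.10, adjusted p = 0.000201). At 24 weeks it rose 1.35-fold (log2 0.43, SE 0.10, adjusted p = 0.0012), with 671.3 to 888.9 (median 772.2) in smoke-exposed and 461.6 to 781.0 (median 564.1) in forced air mice, and these groups overlapped. At 2 weeks 5 of 6 smoke-exposed mice exceeded every forced air mouse, but Bhlhe40 missed the threshold (log2 0.25, SE 0.10, adjusted p = 0.0985).

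Bhlhe41 was the 1 gene called at 2 weeks, with 27.0 to 46.3 (median 36.1) in smoke-exposed and 19.4 to 33.2 (median 21.8) in forced air mice. The groups overlapped, and the rise was 1.26-fold (log2 0.34, SE 0.11, adjusted p = 0.0334). This call was lost (0 of 9 genes called) when arrays were quantile normalized, when only smoke and forced air at 2 weeks were fitted, with the 3′/5′ ratios as covariates (log2 0.25, adjusted p = 0.253) and without the arrays of a high ratio. Single arrays decided it as well: it was not called without smoke replicate 1, 2 or 6 or without forced air replicate 1, 2, 4 or 6, at log2 changes of 0.28 to 0.32. Without smoke replicate 2, Bhlhe40 was called in its place (log2 0.33, adjusted p = 0.0322). Bhlhe41 was not called at 12 weeks (log2 0.21, SE 0.11, adjusted p = 0.162) or 24 weeks (log2 0.20, SE 0.11, adjusted p = 0.181).

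Macrophage markers were higher in the smoke groups as well. At 24 weeks 5 of 8 tested alveolar macrophage markers and 7 of 8 tested monocyte and interstitial macrophage markers were higher with smoke, and none was lower. The summed signal of the alveolar macrophage markers was 5587 to 8109 in smoke-exposed and 4033 to 5952 in forced air mice at 24 weeks. That of the monocyte and interstitial macrophage markers was 3858 to 4250 in smoke-exposed and 1934 to 2970 in forced air mice, and was 4310 to 5271 against 2245 to 2775 at 12 weeks. At 2 weeks the alveolar macrophage sum was 5925 to 6344 in smoke-exposed and 4298 to 5530 in forced air mice. Their part in the Bhlhe40 and Bhlhe41 values was not tested.

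Markers of other cells and of acute activation were lower in smoke-exposed mice. Of 6 endothelial markers 4 were lower at 2 weeks, 6 at 12 weeks and 0 at 24 weeks by limma, and none was higher. Their summed signal at 12 weeks was 2510 to 3379 in smoke-exposed and 3182 to 4454 in forced air mice, and at 24 weeks it was 2818 to 3369 in smoke-exposed and 2929 to 3633 in forced air mice. Of 14 immediate early genes 6, 8 and 4 were lower at 2, 12 and 24 weeks, and 1 was higher, at 12 weeks. Their sum at 24 weeks was 7447 to 10861 in smoke-exposed and 8724 to 11687 in forced air mice. The part of either list in the lower Dbp, Tef, Hlf and Usp2 signals was not tested.

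Ciart, also called CHRONO, encodes a repressor of BMAL1 and CLOCK. Its signal at 24 weeks was 101.6 to 143.5 (median 111.0) in smoke-exposed and 127.2 to 196.4 (median 170.8) in forced air mice. Of the 6 smoke arrays 5 lay below every forced air array, and Ciart fell 1.36-fold (log2 -0.45, SE 0.14, adjusted p = 0.0214). It was not called without forced air replicate 1 (adjusted p = 0.0519) or replicate 6 (adjusted p = 0.0509). At 12 weeks it was not called (log2 -0.35, SE 0.15, adjusted p = 0.0857). The 5 smoke arrays lay within the range of the forced air arrays. Ciart was called there with the title number ranges as a covariate (log2 -0.39, adjusted p = 0.0202). It was also called without forced air replicate 6, the mouse with 107.5 (log2 -0.48, adjusted p = 0.0125).

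Usp2 encodes a ubiquitin-specific protease that removes ubiquitin from clock proteins and is itself rhythmic in many tissues. At 24 weeks its signal was 235.8 to 353.8 (median 282.2) in smoke-exposed and 324.7 to 513.1 (median 443.7) in forced air mice. The groups overlapped by 1 smoke array, and Usp2 fell 1.46-fold (log2 -0.55, SE 0.14, adjusted p = 0.00415). At 12 weeks it fell by 0.45 on the log2 scale (SE 0.15, adjusted p = 0.024), with 354.8, 269.0, 381.9, 388.8 and 253.7 in the smoke-exposed and 362.0 to 531.9 (median 458.0) in the forced air mice. The 12-week call was lost without forced air replicate 3 (adjusted p = 0.0582) or smoke replicate 2 (adjusted p = 0.0774) or 5 (adjusted p = 0.104). It was also lost with the 3′/5′ ratios as covariates (adjusted p = 0.0732). The second Usp2 probe set was called at both times, at -0.40 and -0.54.

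Rora, which encodes the retinoic acid receptor-related orphan receptor alpha, an activator of Arntl, varied least. At 24 weeks the signal was 538.4 to 622.2 (median 564.7) in smoke-exposed and 581.2 to 743.8 (median 682.5) in forced air mice. The groups overlapped, and Rora fell 1.18-fold (log2 -0.24, SE 0.06, adjusted p = 0.00154). It was not called at 2 weeks (log2 -0.01) or 12 weeks (log2 -0.10). Of the other 6 kept Rora probe sets 3 were called lower at 24 weeks and 3 were not, and all 6 had a negative log2 change (-0.14 to -0.47).

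The 12-week calls rested on fewer arrays and on RNA that differed between the groups. At 12 weeks smoke-exposed mice had Gapdh 3′/5′ ratios of 1.48 to 1.54 and forced air mice of 1.58 to 2.42, so the groups did not overlap, while they overlapped at 24 weeks. With the 3′/5′ ratios as covariates 2 of the 9 genes were called at 12 weeks, Bhlhe40 (log2 0.60) and Hlf (log2 -0.51), and Dbp (log2 -0.28, adjusted p = 0.251), Tef and Usp2 (log2 -0.41, adjusted p = 0.0732) were not. Without the arrays of a ratio above 2, 3 were called, and Hlf (adjusted p = 0.055) and Tef (adjusted p = 0.051) were not. The count was also 3 without forced air replicate 1, forced air replicate 3 or smoke replicate 5, and 2 without smoke replicate 2. How many of all genes were called in these settings is not given, so the lower counts cannot be set against a background. Because the Gapdh ratios did not overlap, this covariate and smoke are hard to tell apart at 12 weeks.

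The cessation groups differed in these genes. In smoke-to-forced-air mice none of the 9 genes differed from forced air at 24 weeks by limma (1.98% of all genes did). Of the 9, 1 had an unadjusted p under 0.05, Hlf (log2 -0.33, adjusted p = 0.216). The share of all genes at that unadjusted threshold was not counted. In smoke-to-room-air mice all 9 differed from the same controls: 8 were lower (5.32% of all genes tested) and Nfil3 was higher (9.8% of all genes). The median log2 change of the 9 against forced air was -0.70 after smoke and room air and -0.13 after smoke and forced air, where all genes had 0.01 and 0.02. Both comparisons share their control mice. The direct comparison of the cessation groups called 4 of the 9 lower in smoke-to-room-air mice, while 0.506% of all genes tested were lower there.

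**Figure D3:**
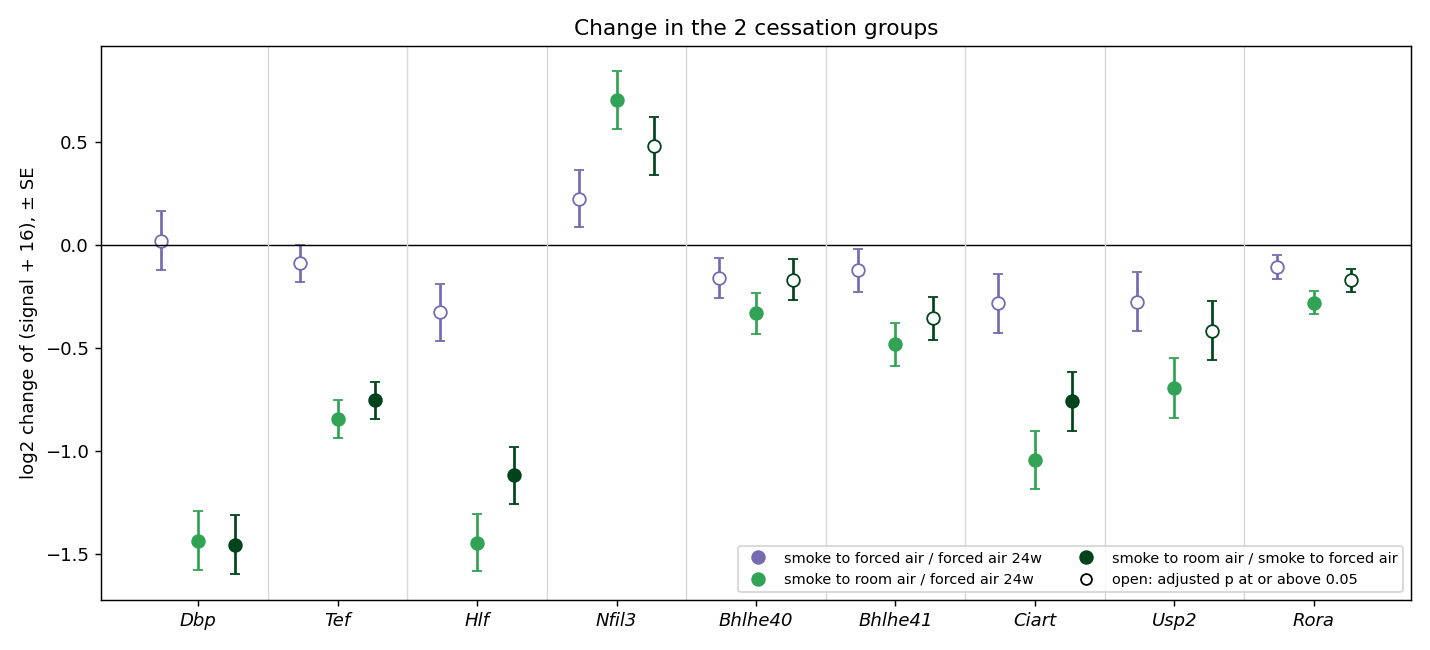
Log2 change of log2(signal + 16) for the 9 genes in each cessation group against forced air at 24 weeks, and between the cessation groups, with whiskers of ± 1 SE. Filled points passed an adjusted p under 0.05 in limma. Dbp, Tef, Hlf and Ciart are filled below 0 in both comparisons of smoke-to-room-air mice.

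Dbp showed the widest separation between the cessation groups. Its signals were 281.2, 191.8, 287.1, 162.2, 141.1 and 197.0 in the 6 smoke-to-room-air mice. They were 447.2 to 731.5 (median 601.8) in smoke-to-forced-air mice and 437.8 to 659.4 (median 604.0) in forced air mice at 24 weeks. Every smoke-to-room-air mouse lay below every mouse of the other 2 groups. Dbp was 2.75-fold lower than in smoke-to-forced-air mice (log2 -1.46, SE 0.14, adjusted p = 3.2e-10) and 2.71-fold lower than in forced air mice (log2 -1.44, SE 0.14, adjusted p = 1.72e-10). The second Dbp probe set gave -1.49 and -1.46.

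The other 2 activators of the D-box were also lowest in smoke-to-room-air mice among these 3 groups. Hlf signals were 61.5 to 101.7 (median 96.2) in smoke-to-room-air, 168.6 to 274.8 (median 209.0) in smoke-to-forced-air and 237.4 to 317.8 (median 258.2) in forced air mice. Hlf was 2.72-fold lower in smoke-to-room-air than in forced air mice (log2 -1.45, SE 0.14, adjusted p = 4.31e-11) and 2.17-fold lower than in smoke-to-forced-air mice (adjusted p = 1.28e-07), with no overlap. Tef was 524.4 to 710.8 (median 602.5) in smoke-to-room-air, 881.1 to 1193 (median 1052) in smoke-to-forced-air and 952.0 to 1203 (median 1102) in forced air mice. Smoke-to-room-air mice again lay below all others, at a log2 change of -0.84 against forced air (SE 0.09, adjusted p = 1.15e-09) and of -0.76 against smoke-to-forced-air mice (SE 0.09, adjusted p = 7e-08). All kept probe sets of Tef and Hlf were called lower in both comparisons.

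Ciart was 56.6 to 85.4 (median 74.0) in smoke-to-room-air, 97.7 to 169.9 (median 140.0) in smoke-to-forced-air and 127.2 to 196.4 (median 170.8) in forced air mice. No smoke-to-room-air array overlapped the others, and Ciart was 2.07-fold lower than in forced air mice (log2 -1.05, SE 0.14, adjusted p = 4.31e-07). The difference from smoke-to-forced-air mice was -0.76 (SE 0.14, adjusted p = 0.00107).

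Nfil3 signals were 61.8, 93.3, 44.8, 85.2, 99.6 and 86.1 in smoke-to-room-air mice, 32.1 to 68.6 (median 50.2) in smoke-to-forced-air mice and 29.3 to 57.9 (median 40.9) in forced air mice. Of the 6 smoke-to-room-air mice 5 lay above every forced air mouse, and Nfil3 was 1.63-fold higher (log2 0.70, SE 0.14, adjusted p = 0.000277). Against smoke-to-forced-air mice it was not called (log2 0.48, SE 0.14, adjusted p = 0.0893), and was called without smoke-to-room-air replicate 3, the mouse with 44.8 (log2 0.60, adjusted p = 0.0141), and with the title number ranges as a covariate (log2 0.49, adjusted p = 0.0439).

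The remaining 4 genes were lower in smoke-to-room-air than in forced air mice, and none of them was called between the cessation groups, although no Bhlhe41 array overlapped there (log2 -0.36, adjusted p = 0.0918) and the call was gained in a fit of these 2 groups alone (adjusted p = 0.0384). Usp2 was 194.9 to 330.9 (median 255.5) in smoke-to-room-air and 324.7 to 513.1 (median 443.7) in forced air mice, and 5 of 6 arrays lay below all controls (log2 -0.70, SE 0.14, adjusted p = 0.00044). Bhlhe41 was 12.9 to 20.8 (median 15.1) against 20.1 to 34.3 (median 31), with 5 of 6 below (log2 -0.48, SE 0.11, adjusted p = 0.000815). Rora had a log2 change of -0.28 (SE 0.06, adjusted p = 0.000346) and 5 of 6 arrays below. Bhlhe40 was 392.1 to 525.8 (median 437.2) in smoke-to-room-air and 461.6 to 781.0 (median 564.1) in forced air mice, with 4 of 6 below (log2 -0.33, SE 0.10, adjusted p = 0.0162). Bhlhe40 was not called without forced air replicate 1, the mouse with 781.0 (log2 -0.24, adjusted p = 0.0789), or without smoke-to-room-air replicate 6 (adjusted p = 0.0506).

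Against mice still exposed to smoke at 24 weeks, 6 of the 9 were lower in smoke-to-room-air mice (9.06% of all genes were lower) and none was higher. These were Dbp (log2 -0.77), Tef (-0.64), Hlf (-0.83), Bhlhe40 (-0.76), Bhlhe41 (-0.69) and Ciart (-0.60), and in each the 2 groups did not overlap. How often groups did not overlap was not counted over all genes, in this or any other comparison. Usp2 (-0.15), Rora (-0.04) and Nfil3 (0.23) were not called. In smoke-to-forced-air mice Dbp was higher than in smoke-exposed mice (7.68% of all genes were higher), at 594.7 ± 108 against 359.9 ± 44.6 (SD, n = 6 each; log2 0.69, SE 0.14, limma adjusted p = 0.000408). Bhlhe40 (log2 -0.59, SE 0.10, adjusted p = 1.39e-05) and Bhlhe41 (log2 -0.33, SE 0.11, adjusted p = 0.0249) were lower there (7.45% of all genes were lower). Dbp and Bhlhe40 did not overlap between these groups. The Bhlhe41 call was lost without smoke replicate 1 (adjusted p = 0.0532) or 6 (adjusted p = 0.0782). It was also lost without smoke-to-forced-air replicate 3 (adjusted p = 0.0509) or 4 (adjusted p = 0.0618). The summed signal of the monocyte and interstitial macrophage markers was 2339 to 3021 in smoke-to-forced-air, 2546 to 3570 in smoke-to-room-air and 3858 to 4250 in smoke-exposed mice at 24 weeks.

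Markers of stress and of blood cells differed between smoke-to-room-air and forced air mice as well. Of 10 glucocorticoid response genes 7 were lower, among them Fkbp5 (log2 -0.88), Tsc22d3 (-0.70) and the clock gene Per1 (-1.26), and none was higher. Their summed signal was 7560 to 9687 in smoke-to-room-air, 7629 to 9793 in smoke-to-forced-air and 9918 to 12233 in forced air mice. The heat shock genes Hspa1a (-1.58), Hspa1b (-1.29) and Dnajb1 (-0.81) were lower and the cold-inducible Cirbp (0.72) higher, of 7 tested heat and cold response genes. Of 5 tested neutrophil markers 4 were higher, with a summed signal of 3871 to 4226 in smoke-to-room-air, 1905 to 3395 in smoke-to-forced-air and 1811 to 3206 in forced air mice. The part of these genes and cells in the clock output values was not tested.

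Forced air was also compared with untreated mice, which differ from it in the procedure, in time and in age together. At 2 weeks of forced air 5 of the 9 were higher (10.8% of all genes were higher), at 12 weeks 7 were higher (2.2% of all genes) and Nfil3 was lower (3.56% of all genes), and at 24 weeks 5 were higher (4.71% of all genes). These 3 comparisons share the untreated mice. Tef, Hlf, Bhlhe40 and Ciart were higher at each of the 3 times. Bhlhe40 was not called in fits of the compared groups alone at 12 weeks (adjusted p = 0.055) or 24 weeks (adjusted p = 0.107). It was also lost at 12 weeks with the 3′/5′ ratios as covariates (log2 0.27, adjusted p = 0.195), and without untreated replicate 4 (log2 0.28, adjusted p = 0.105) or forced air replicate 1, and at 24 weeks without forced air replicate 1 (log2 0.23, adjusted p = 0.107) or untreated replicate 2 or 4. Ciart had 155.6 to 190.1 (median 178.2) at 2 weeks of forced air and 54.9 to 131.2 (median 94.4) in untreated mice, with no overlap (log2 0.81, SE 0.14, adjusted p = 4.67e-05). Hlf had 237.4 to 317.8 at 24 weeks of forced air and 78.0 to 233.3 in untreated mice, again with no overlap (log2 1.02, SE 0.14, adjusted p = 9.81e-07).

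Dbp had 818.3 to 1066 (median 936.5) at 2 weeks and 911.1 to 1165 (median 978.8) at 12 weeks of forced air, and all 12 of these mice lay above the untreated mice, at 652.2, 512.6, 600.0, 233.0, 451.4 and 465.8. The log2 changes were 1.00 (SE 0.14, adjusted p = 1.43e-06) and 1.09 (SE 0.14, adjusted p = 6e-07). At 24 weeks of forced air Dbp was not called (log2 0.31, SE 0.14, adjusted p = 0.149), but its second probe set was (log2 0.47, adjusted p = 0.0464). It was lower at 24 than at 2 weeks of forced air by 0.69 on the log2 scale (adjusted p = 0.00012), as was Tef (log2 -0.28, adjusted p = 0.012), while Rora was higher (log2 0.26, adjusted p = 0.00024). Of all genes 21.9% were lower and 18.7% higher in that comparison. Tef lost its call after quantile normalization (adjusted p = 0.0729) and with the 3′/5′ ratios as covariates (log2 -0.16, adjusted p = 0.266), and its second probe set gave 0.19, not called. The Gapdh ratio was 1.457 to 1.53 at 24 weeks and 1.61 to 2.08 at 2 weeks of forced air, with no overlap. Of the 6 lung tissue markers 5 were lower at 24 weeks, as were 3 of 6 endothelial markers, and their part in these changes was not tested.

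The count at 12 weeks of forced air was 4, all higher, when other groups were left out of the fit, and 5, all higher, without untreated replicate 4, which had the lowest Dbp, Tef, Bhlhe40, Bhlhe41 and Rora signals among the untreated mice. The spread among untreated mice was wide for several genes, with an SD of 57.1 around a mean of 133.1 for Hlf and of 105.8 around 328.8 for Usp2. The Gapdh ratio was 1.61 to 2.08 at 2 weeks of forced air, 1.58 to 2.42 at 12 weeks and 1.501 to 1.97 in untreated mice.

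Smoke-to-room-air mice were set against untreated mice after the values had been seen. By the group names neither group ended on forced air, but the treatment protocol describes sham exposure after smoke for both cessation groups, and this conflict is not settled by the labels. Dbp (log2 -1.13), Tef (-0.47) and Hlf (-0.43) were lower (3.25% of all genes) and Nfil3 (0.46) was higher (4.13% of all genes). Dbp (adjusted p = 7.49e-07) and Tef (adjusted p = 0.000556) stayed called in all alternatives run. Dbp overlapped between the groups, with 4 of 6 smoke-to-room-air arrays below all untreated ones. Hlf (adjusted p = 0.044) and Nfil3 (adjusted p = 0.0314) were both lost when other groups were left out of the fit, where 2 were called. The count was also 2 without untreated replicate 1 or 3 and without smoke-to-room-air replicate 4, 5 or 6. Ciart, Usp2, Bhlhe40, Bhlhe41 and Rora were not called.

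Ordered by group mean, smoke-to-room-air mice were lowest of the 9 groups for Dbp, Tef, Hlf, Bhlhe40, Bhlhe41, Ciart and Usp2 and highest for Nfil3. Dbp ran over a 4.80-fold range, with 1009 in forced air at 12 weeks, 948.3 in forced air at 2 weeks, 809.7 in smoke at 2 weeks, 710.5 in smoke at 12 weeks, 594.7 in smoke-to-forced-air, 582.8 in forced air at 24 weeks, 485.8 in untreated, 359.9 in smoke at 24 weeks and 210.1 in smoke-to-room-air mice. Of its 8 pairs of neighbours in this order 4 differed by more than the larger SD of the pair: forced air and smoke at 2 weeks, smoke at 2 and at 12 weeks, smoke at 12 weeks and smoke-to-forced-air, and smoke at 24 weeks and smoke-to-room-air. For Tef, with a 2.22-fold range, 2 of 8 pairs differed by more. These were forced air and smoke at 2 weeks, and untreated (849.7) and smoke-to-room-air mice (604.4). This rule is a description and not a test, and limma called neither Dbp nor Tef lower with smoke at 2 weeks.

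For Hlf (3.02-fold range), Nfil3 (2.54-fold), Ciart (2.54-fold) and Usp2 (1.76-fold) no neighbours differed by more than the larger SD, so only groups further apart in the order are separated. The Hlf means were 270.9 in forced air at 24 weeks at the top and 89.7 in smoke-to-room-air mice at the bottom. Nfil3 had 78.5 in smoke-to-room-air mice, then 63.2 in smoke at 24 weeks, and 30.9 in forced air at 12 weeks as its lowest mean. Bhlhe40 (1.86-fold range) and Bhlhe41 (2.62-fold) had their highest means in smoke at 12 weeks, 842.2 and 42.5. For Bhlhe40 the 3 smoke groups lay on top, and the step of 128.8 from smoke at 2 weeks down to forced air at 2 weeks was larger than the SD of 115.4. By limma that difference at 2 weeks was not called. Rora had the narrowest range, 1.30-fold, with 675.8 in forced air at 24 weeks and 521.6 in smoke at 12 weeks.

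The core loop that drives these genes was described beside them. In smoke-to-room-air against forced air mice 3 of 13 tested core clock genes were higher and 7 were lower. Arntl averaged 201.1 in smoke-to-room-air and 38.6 in forced air mice (log2 1.99, SE 0.15, adjusted p = 1.16e-14), and Npas2 averaged 294.7 and 78.7 (log2 1.72, adjusted p = 5.17e-13). Per2 (log2 -2.09), Per3 (-1.35), Per1 (-1.26), Cry1 (-0.92), Nr1d2 (-0.59), Cry2 (-0.55) and Csnk1e (-0.23) were lower, and Clock (0.28) was higher too. In smoke-to-forced-air mice Arntl was higher (log2 0.67) and Per2 (-0.68) and Cry1 (-0.64) were lower than in forced air mice. Between the cessation groups 2 were higher, Arntl (1.33) and Npas2 (1.30), and 6 were lower, and Nr1d1, a ROR element repressor, was among the lower (log2 -0.56, adjusted p = 0.0493).

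With smoke at 24 weeks 2 of the same 13 genes were higher, Arntl (log2 0.46) and Npas2 (0.49), and 4 were lower, Nr1d1 (-1.02), Cry2 (-0.36), Csnk1e (-0.23) and Nr1d2 (-0.19). In forced air against untreated mice Arntl and Npas2 were lower and Per2, Per3, Cry1 and Nr1d2 higher at each of the 3 times. At 2 weeks of forced air Arntl averaged 22.4, against 112.3 in untreated mice (log2 -1.66, adjusted p = 1.16e-11). The median log2 change of the 13 was -0.34 in smoke-to-room-air against forced air mice, where that of all genes was 0.01.

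Genes known to follow the clock or the D-box were taken as a second list, of which 9 of 11 listed symbols were tested. The entries Por and Gm129 were not found under those symbols among the genes tested. In smoke-to-room-air against forced air mice 6 were lower and 1 was higher. The lower ones included the mitotic kinase gene Wee1 (196.8 and 476.7, log2 -1.21, adjusted p = 6.45e-12), the tetraspanin gene Tspan4 (155.7 and 362.8, log2 -1.14, adjusted p = 4.03e-14) and the heme synthesis gene Alas1 (log2 -0.49). Pdxk (log2 -0.38), the pyridoxal kinase gene known as a D-box target in mouse liver and brain, was lower too. Leo1 (log2 0.61) was the higher one. In smoke-to-forced-air mice Wee1 (log2 -0.46) and Alas1 (-0.34) were lower and none was higher. Tsc22d3 and Cdkn1a stand in this list and among the glucocorticoid response genes. With smoke at 24 weeks none of the 9 was lower and 2 were higher, Cdkn1a, the cell cycle inhibitor p21 (log2 0.41), and Leo1 (0.25). Pdxk, Wee1 and Alas1 were not called there.

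The genes also varied together among mice of the same group. Deviations from the group mean of log2(signal + 16) were correlated over the 53 arrays, which share amplification and scaling, and the values are descriptions. Pearson's r was 0.69 between Dbp and Tef, 0.66 between Tef and Hlf and 0.54 between Dbp and Hlf. Ciart, Usp2 and Rora had r of 0.60 to 0.64 with each other. Nfil3 had negative r with Dbp (-0.38), Hlf (-0.19) and Tef (-0.15), and Bhlhe40 and Bhlhe41 had an r of -0.07 with each other.

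**Figure D4:**
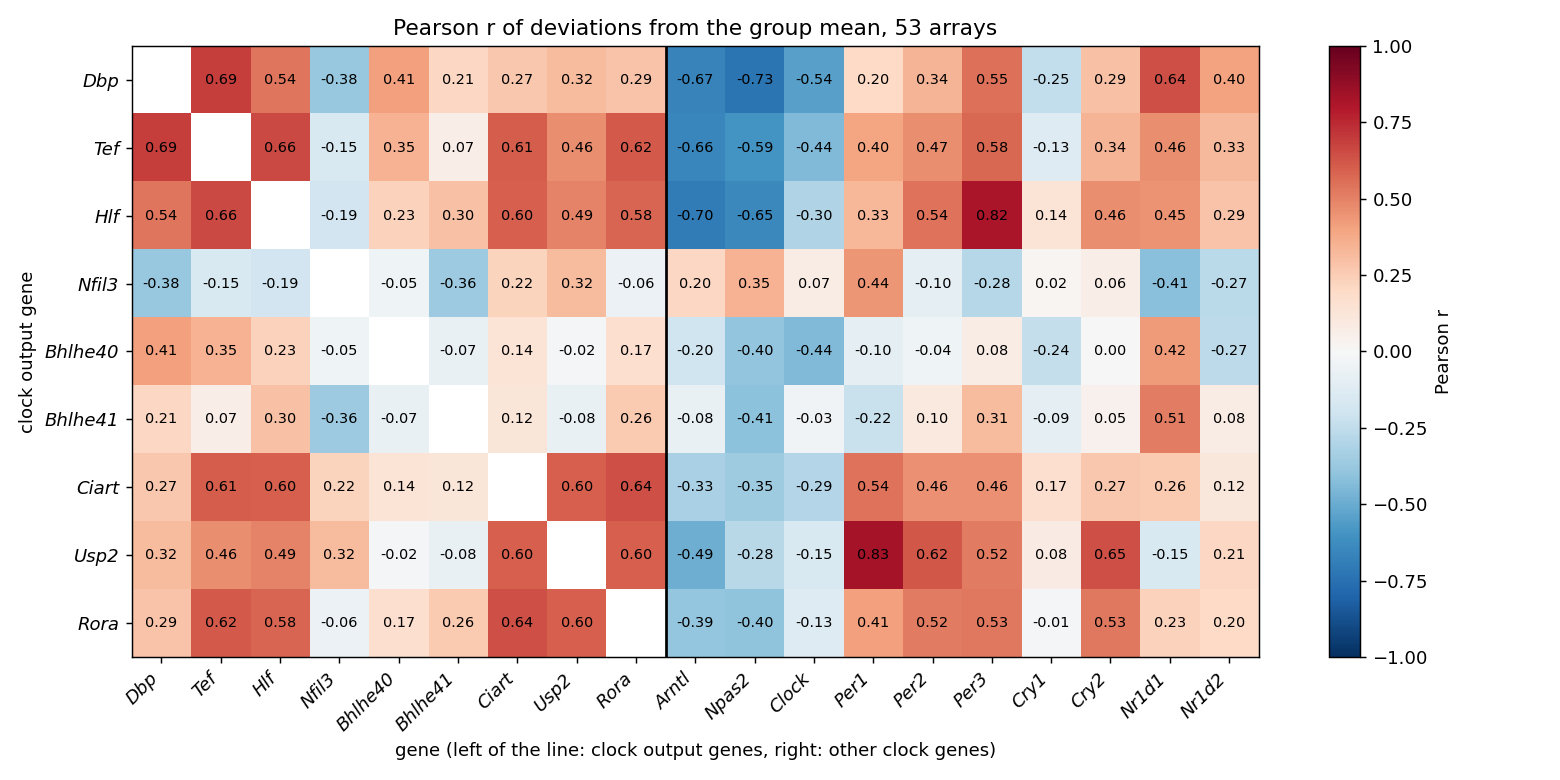
Pearson's r between deviations from the group mean of log2(signal + 16) over 53 arrays, for each of the 9 genes (rows) with each other and with 10 core clock genes (columns). Red is positive and blue negative, and each cell prints its r. Dbp, Tef and Hlf have negative r with Arntl and Npas2 (-0.59 to -0.73), and Usp2 has its highest r with Per1 (0.83).

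The genes outside this set whose within-group pattern was most like each gene were named as the 5 highest and 3 lowest Pearson's r among the 15030 genes, and those most like it lead here. For Dbp these were Sphk2 (0.83), Nr1d1 (0.64), Tspan4 (0.63), Smyd3 (0.56) and Per3 (0.55), and the most opposite were Npas2 (-0.73), Arntl (-0.67) and Snap23 (-0.56). By Spearman's rho on the same deviations the 5 highest for Dbp were Sphk2 (0.70), Eef2k (0.68), Magi3 (0.66), Dpep1 (0.65) and Ilk (0.64), with no core clock gene among them, and the 3 lowest held Npas2 (-0.61) but not Arntl. The annotated spans of Dbp and Sphk2 overlap by 741 bases on chromosome 7 of GRCm38.p6, so probe sets of one may take up RNA of the other, which was not tested. For Hlf they were led by Per3 (0.82), and for Usp2 by Per1 (0.83), and each of these ranked second by Spearman's rho (0.71 and 0.78). Nfil3 was most like Atf3 (0.67) and Nr4a3 (0.64), both stress-induced transcription factors.

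For Tef the most like genes were Vldlr (0.75), Magi3 (0.74) and Slc30a1 (0.71), for Ciart Sgip1 (0.76), Adap2 (0.73) and Dicer1 (0.73), and for Rora Tnks (0.74) and Rab22a (0.69). Bhlhe40 was most like Erlin2 (0.69) and Bhlhe41 most like Cast (0.58), and no core clock gene was among the 5 highest of either. With the group means left in, r between Dbp and Npas2 was -0.93, and the groups lie apart along both axes.

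**Figure D5:**
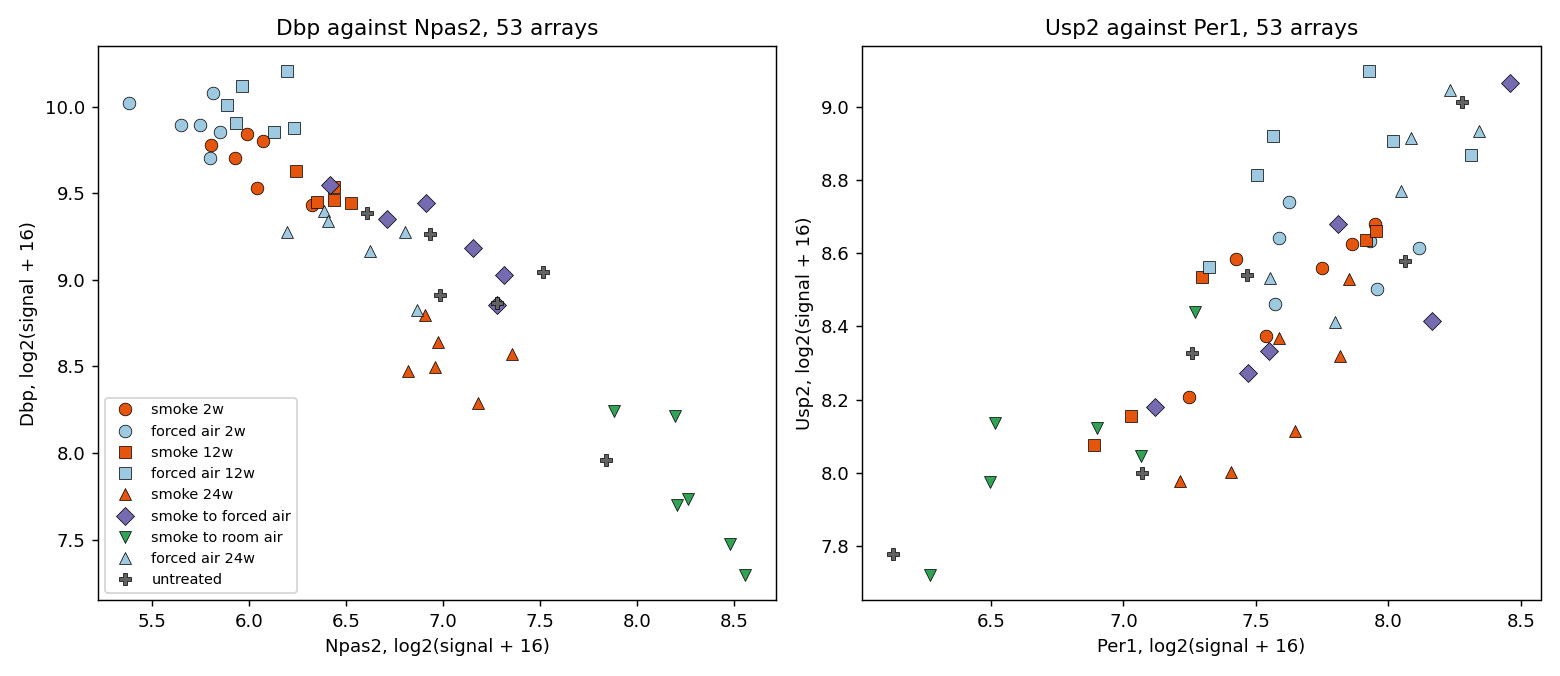
Dbp against Npas2 and Usp2 against Per1 on 53 arrays, both axes as log2(signal + 16), with 1 symbol per group. The 6 smoke-to-room-air arrays lie at the high Npas2 and low Dbp end, and the forced air arrays of 2 and 12 weeks at the other end.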

How the data were processed

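Total RNA from whole small lung lobes (50 ng per sample) was amplified and hybridised to 1-colour Affymetrix Mouse 430 2.0 arrays, per the labels' protocols. The authors deposited MAS5 signal intensity values, with the array scaled so that the trimmed mean (2% from each end) is 150, as tested on the values. The deposited tables also give a detection p-value for each probe set and array.

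Probe sets annotated to 1 gene symbol were kept if, in 1 group or more, detection p fell under 0.05 on 50% of its arrays or more, and the brightest kept probe set stood for its gene, which left 15030 genes. No further normalization was applied. Differences of log2(signal + 16) were fitted with limma 3.58.1 in R 4.3.3, with 1 mean per group, all 53 arrays, no covariate, eBayes with a variance trend, two-sided p and Benjamini-Hochberg adjustment over all genes within each comparison. The pseudocount of 16 understates the change of dim genes such as Bhlhe41 and Nfil3. The fit was tested on simulated data, in which every group had each gene's mean over all 53 arrays and its within-group spread. Changes of known size were added to 200 genes in smoke at 24 weeks, which was compared with forced air at 24 weeks. Over 15030 genes the fit recovered 92 of 100 changes of 0.5 and 100 of 100 changes of 1 on the log2 scale. It also called 10 unchanged genes.

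The 9 genes, the core clock and clock-controlled lists, the cell markers and the response gene lists were chosen with earlier results of these data known. The 9 genes are all named. The other genes named are members of those lists and the highest and lowest in within-group likeness. Alternatives were quantile normalization, other pseudocounts and filters, other probe sets, only the compared groups, 3′/5′ ratios or title number ranges as covariates, and leaving out arrays. No batch is named in the labels, and no source used here says what the last numbers in the sample titles mean. The smoke-to-room-air comparison with untreated mice was added after the values were seen. Promoters are RefSeq windows of GRCm38.p6.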

Additional observations from a re-analysis of the deposited data

Results flagged for a closer look

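The Rora signal of smoke replicate 3 at 2 weeks was 493.0, below the other 5 arrays of its group, at 558.9 to 584.5. Its gap to the nearest array was 0.721 of the range of the group. This was 1 flag among 81 groups of arrays tested, and chance flags about 1 in 20.

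The changes against forced air at 24 weeks differed between the cessation groups for 4 genes by the limma test of the difference itself, smoke to room air minus smoke to forced air. The shared control drops out, so this is the direct comparison of the cessation groups given above, where 0.506% of all genes were lower. The difference was -1.46 for Dbp, -0.76 for Tef, -1.12 for Hlf and -0.76 for Ciart on the log2 scale, and each was seen in 6 of 6 smoke-to-room-air arrays, all below every smoke-to-forced-air array.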

How the results depend on the processing

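No paired analysis was possible because the labels carry no replicate number, and numbers given in accession order pair no samples. Of the gene-level values under the alternatives, 3425 kept their side of the threshold, 80 lost and 39 gained the call. A change of sign was counted only where a value was called, so the 3425 may hold changes of sign between values not called. With a call involved, 1 turned: Tef in forced air at 24 against 2 weeks was 0.19 (log2, adjusted p = 0.336) on the second brightest probe set. The count of called genes for smoke at 2 weeks was 0 after quantile normalization, with only the compared groups, with 3′/5′ ratios as covariates, and without arrays above a Gapdh ratio of 2. For smoke at 12 weeks it was 2 with those covariates and 3 without those arrays. Forced air at 12 weeks against untreated gave 4, and smoke to room air against untreated 2, with only the compared groups. The difference between the 24- and 2-week smoke effects gave 2 after quantile normalization, 3 with only the compared groups and 3 with the title number ranges. Leaving out 1 array at a time gave 0 to 1 called genes for smoke at 2 weeks, 2 to 6 at 12 weeks and 6 to 7 at 24 weeks. It gave 0 to 0 for smoke to forced air and 8 to 9 for smoke to room air against forced air, 2 to 3 and 6 to 6 against smoke, and 4 to 5 between the cessation groups. Forced air against untreated gave 5 to 5, 5 to 8 and 4 to 6 at 2, 12 and 24 weeks, and smoke to room air against untreated 2 to 4. The difference between the 24- and 2-week effects was 1 without forced air replicate 1 or 4 at 24 weeks or smoke replicate 3 at 2 weeks, and 0 to 1 in all. The share of all genes called is not given for these alternatives, and the causes were not tested. Bhlhe41 and Nfil3 were the dimmest of the 9, with median signals of 29.35 and 44.82.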
